A study of Mus musculus with 4 samples.

Results

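Lyz1 and Lyz2, the neighbouring mouse lysozyme genes, were followed through the Schwann cells and macrophages of hindlimb muscle, 2 genes chosen by symbol out of the 32285 in each count table. The genes were picked because their levels in cells named after terminal Schwann cells (tSCs) differed between the genotypes. Those levels are therefore given as a description and carry no test. Single cells had been prepared from tibialis anterior and gastrocnemius muscles of 2-month-old male mice that carried the S100GFP reporter transgene, with 4 mice pooled per genotype, and had been sorted on GFP before droplet-based sequencing. The 4 libraries were WT GFP+ and WT GFP- from reporter mice with an intact Sod1 gene, and Sod1KO GFP+ and Sod1KO GFP- from reporter mice of genotype Sod1-/-, which lack the cytosolic superoxide dismutase in every tissue. All groups carried the transgene, and GFP+ cells of this reporter included many that were not Schwann cells. Each group was 1 library, so no difference between genotypes had a replicate, no p-value was computed, and every interval below covers counting error at the 95% level and nothing else.

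Lysozyme is a secreted and lysosomal enzyme that cuts the peptidoglycan of bacterial cell walls. In the mouse it comes from a pair of genes. Lyz2 is the gene of macrophages, monocytes and neutrophils and is so firmly tied to them that its locus drives Cre in myeloid deletion strains, while Lyz1 is best known from the Paneth cells of the small intestine. Schwann cells are the glia of peripheral nerve. Myelinating Schwann cells (mSCs) wrap axons, and tSCs cap the nerve ending at the neuromuscular junction, where they take up debris when the nerve withdraws.

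The genes lie side by side on the minus strand of chromosome 10, Lyz2 (ENSMUSG00000069516) at chr10:117277541-117282272 and Lyz1 (ENSMUSG00000069515) at chr10:117287795-117292868 in GRCm38.p6, with 5522 bases and 0 annotated genes between them. No link between the sequences upstream of the genes and their levels was tested. The 250 bases upstream of each start, from RefSeq on that build, are shown so that the proximal promoters can be compared. They are the minus strand of chr10:117292869-117293118 for Lyz1 and of chr10:117282273-117282522 for Lyz2, written 5′ to 3′, and capitals mark the letters AGGAA on either strand, the core bound by ETS factors such as PU.1.
Lyz1: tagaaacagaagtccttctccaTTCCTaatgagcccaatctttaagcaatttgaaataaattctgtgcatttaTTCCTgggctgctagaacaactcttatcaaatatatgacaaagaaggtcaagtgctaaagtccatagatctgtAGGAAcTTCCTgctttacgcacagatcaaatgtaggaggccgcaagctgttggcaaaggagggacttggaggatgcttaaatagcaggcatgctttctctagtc
Lyz2: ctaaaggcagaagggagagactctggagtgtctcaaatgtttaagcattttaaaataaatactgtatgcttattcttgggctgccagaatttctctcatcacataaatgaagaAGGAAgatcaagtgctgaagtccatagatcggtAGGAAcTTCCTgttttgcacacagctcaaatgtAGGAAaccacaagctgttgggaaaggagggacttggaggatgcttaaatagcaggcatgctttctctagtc
The last 100 bases before the start were 92% identical between the genes, and the 150 before those were 71.1% identical with gaps counted. Both promoters held 4 matches of AGGAA, of which the pair set head to head near the start stood at the same distance in each. Those letters occur in 60.3% of all 32851 promoter windows of this length, so their presence alone distinguishes neither gene. The C/EBP letters TTNNGNAA had 1 match in each promoter at different positions, against 36.8% of windows with a match, and TATAAA had 0 matches in either, against 12.4% of windows.

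The transcripts are close enough that reads could be split between the genes. Of the bases that could be aligned, 95.1% of 447 in the coding sequence and 96.3% of 789 after the stop codon were identical. Even so, only 44 of the 1180 windows of 90 bases in the main Lyz1 transcript occurred without a mismatch in a Lyz2 transcript, and 44 of 2906 the other way round. Over the last 500 bases of these transcripts, the numbers were 15 of 411 for Lyz1 and 0 of 411 for Lyz2. Tags of a 3' kit lie near the transcript end in use, and which end that was for Lyz2 was not checked. The main Lyz2 transcript has 2469 bases after the stop codon and that of Lyz1 has 790. The 0 may thus come from bases that Lyz1 lacks. Lyz1 counts are uncertain where Lyz1 is a small fraction of Lyz2, and the rate of misplaced reads was not tested.

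The libraries held 5498, 7267, 2052 and 6598 barcodes in the order WT GFP+, Sod1KO GFP+, WT GFP- and Sod1KO GFP-, with medians of 10554.5, 12062, 6152.5 and 13825.5 UMIs (unique molecular identifiers, each a counted transcript molecule), and 4557, 5925, 1638 and 5143 cells were used after filtering. Any 2 libraries shared between 1 and 13 barcodes. Sod1 was counted at 90.8, 98.3, 123 and 113 CPM (the UMIs of a gene per 1000000 UMIs) in that order. It was thus not lower in Sod1KO GFP+. The libraries came from a 3' tag kit and the sources used here do not say which piece of the gene is deleted, so these counts do not check the genotype labels. Cells were clustered with Lyz1, Lyz2 and the macrophage genes C1qa, Tyrobp and Fcer1g left out, and clusters were named from marker lists.

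The names of cell classes stand for clusters rather than sorted cells. The macrophage-like class was cluster 15, with 11 of 11 macrophage markers, among them Csf1r, Adgre1 and Cd163. It also carried 5 of 7 monocyte and dendritic cell markers, so it is a mixed mononuclear phagocyte population. Its GFP+ cells numbered 129 for WT and 212 for Sod1KO, and its GFP- cells 20 and 76. The mSC-like class held 1077 WT and 657 Sod1KO cells among the GFP+. The tSC-like class was made of clusters 7, 11 and 31, with 396 WT and 888 Sod1KO cells among the GFP+ and 0 and 7 among the GFP-. Cluster 11 carried all 6 pan-Schwann markers but only 5 of 10 tSC markers, namely Bche, Ajap1, Col20a1, Kcnj10 and Cspg4. Scn7a, Gfra3, Gap43, Btc and Ngfr did not pass. Ngfr, the p75 neurotrophin receptor, was found in 2.07% and 1.96% of its Lyz2-bearing cells of WT and Sod1KO. Cluster 7 carried all 10 tSC markers including Ngfr, Btc and Kcnj10. The paper describes prominent Ngfr in its tSC cluster. Whether the cells of cluster 11 are terminal Schwann cells or other Schwann cells without myelin was not tested.

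Lyz2 was among the most abundant transcripts of WT tSC-like cells and was far less abundant in Sod1KO tSC-like cells. It made up 4598 CPM (4546 to 4650) in the 396 WT cells, from 29803 UMIs, and was their 9th most abundant gene. In the 888 Sod1KO cells it was at 431 CPM (419 to 443), from 4674 UMIs, and ranked 324th. The WT level was 10.7-fold higher, a log2 ratio of Sod1KO over WT of -3.42 (-3.46 to -3.37). Lyz1 stood lower by more than an order of magnitude in each library, at 132 CPM (123 to 141) in WT and 8.20 CPM (6.59 to 10.1) in Sod1KO, and its log2 ratio was -4.0 (-4.34 to -3.69). The tSC-like cells contributed 54.8% of all Lyz2 UMIs of the WT GFP+ library, more than the 43.8% that came from macrophage-like cells, whereas in Sod1KO GFP+ they contributed 17.9% against 78.0%.

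**Figure D1:**
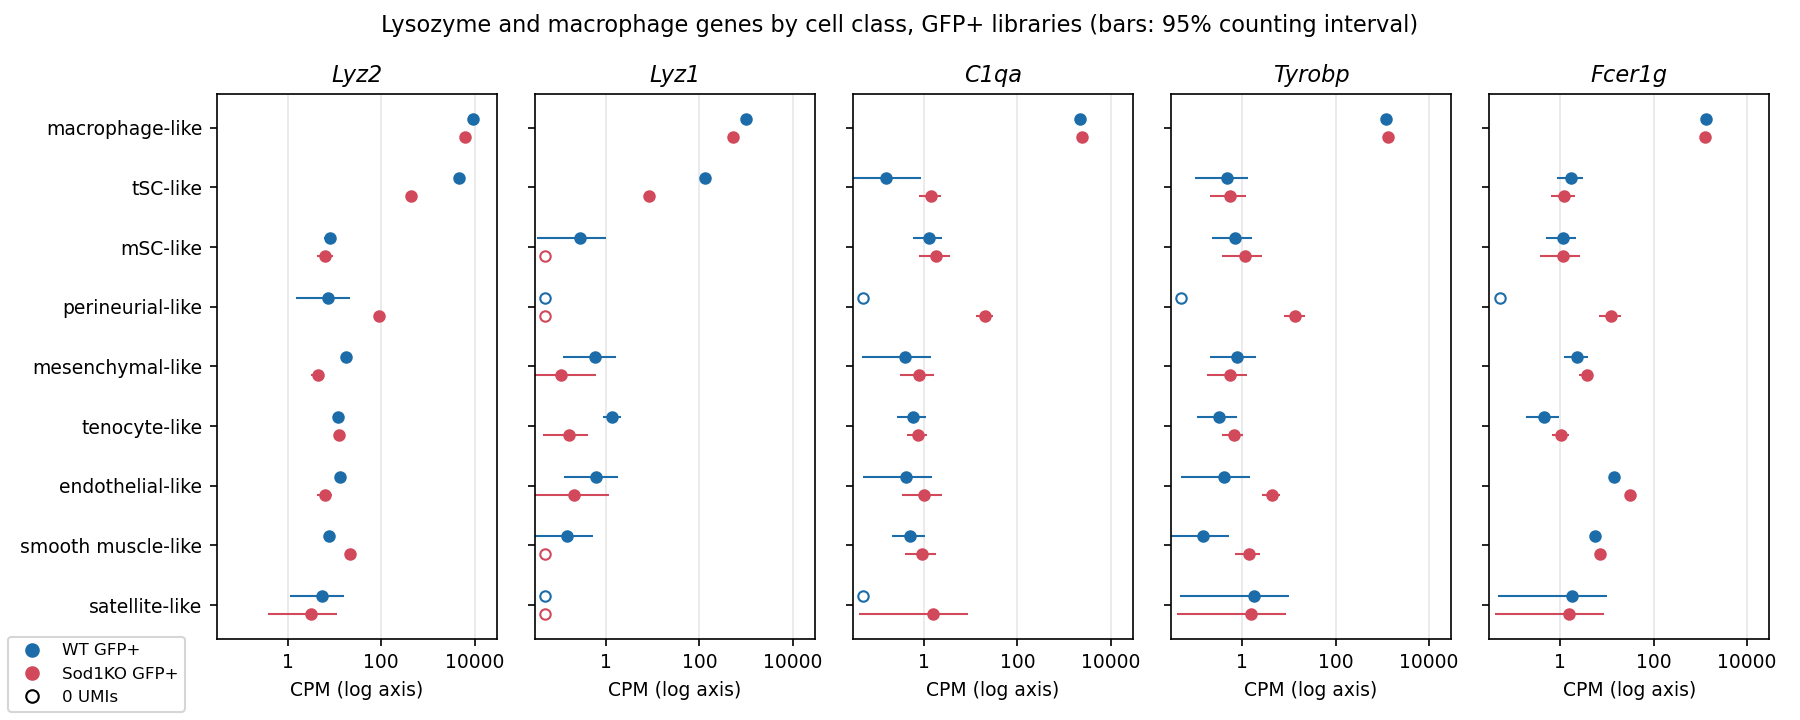
CPM of Lyz2, Lyz1 and the macrophage genes C1qa, Tyrobp and Fcer1g (log axes, 1 panel per gene) in 9 cell classes of WT GFP+ (blue) and Sod1KO GFP+ (red), with 95% counting intervals and open circles for 0 UMIs. In tSC-like cells Lyz2 stood at 4598 and 431 CPM and Lyz1 at 132 and 8.20 CPM, while C1qa, Tyrobp and Fcer1g were each below 2 CPM there and above 1000 CPM in macrophage-like cells.

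More of the WT cells carried the transcript, and the amount per cell was uneven. A Lyz2 UMI was found in 76.0% of WT tSC-like cells (71.5 to 80.1) and in 25% of Sod1KO cells (22.2 to 28.0), at median depths of 12548.5 and 9542 UMIs. After every cell had been thinned to 1000 UMIs, which left out 1 WT and 2 Sod1KO cells, the shares were 63.0% (58.1 to 67.8) and 10.7% (8.76 to 12.9). The same shares in mSC-like cells, at median depths of 6238 and 6118 UMIs, were 1.02% and 0.457%, so both tSC-like values lay above the level of cells in which Lyz2 was near background. The median WT tSC-like cell held 35.5 Lyz2 UMIs and the highest 487, and 57 of 396 cells held 50% of the UMIs. In Sod1KO the median cell held 0, the highest held 276, and 20 of 888 cells held 50% of the UMIs. Lyz1 was more concentrated still: 4 WT cells held 50% of its 853 UMIs, and 1 of them held 185. With the 10 highest cells of each library left out, the log2 ratios were -3.43 (-3.94 to -2.96) for Lyz1 and -3.85 (-3.90 to -3.79) for Lyz2.

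The lysozyme transcripts of tSC-like cells lay almost wholly in cluster 11, and this cluster was also a smaller part of the Sod1KO tSC-like cells. Cluster 11 held 320 of the 396 WT cells (80.8%) and 99.2% of their Lyz2 UMIs, and 216 of the 888 Sod1KO cells (24.3%) and 95.5% of their Lyz2 UMIs. Within cluster 11 Lyz2 was at 5001 CPM (4944 to 5058) in WT and 1424 CPM (1382 to 1466) in Sod1KO, a log2 ratio of -1.81 (-1.86 to -1.77). Lyz1 within it was at 144 CPM (134 to 154) and 27.7 CPM (22.2 to 34.2), a log2 ratio of -2.37 (-2.71 to -2.05). The difference within the cluster was smaller than over all tSC-like cells. The make-up of cluster 11 also differed between the libraries. When the Schwann-like cells were clustered again, 60 of its 216 Sod1KO cells but 2 of its 320 WT cells fell into subcluster 1, which was otherwise made mostly of cluster 7 cells, and those 60 held Lyz2 at 136 CPM. In subcluster 2, which held 297 WT and 144 Sod1KO cells of cluster 11, Lyz2 was at 5312 CPM in WT and 1932 CPM in Sod1KO, a log2 ratio of -1.46 (-1.51 to -1.41), and Lyz1 was at 154 and 40.4 CPM, a ratio of -1.93 (-2.27 to -1.60). When the Sod1KO clusters were weighted as in WT, Lyz2 came to 1301 CPM and Lyz1 to 25.3 CPM, log2 ratios of -1.82 and -2.38, so the remainder of the difference over all tSC-like cells went with the mix of clusters.

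Cluster 7, the Ngfr-bearing cells that made up 63 WT and 584 Sod1KO cells, had little lysozyme. Its Lyz2 was at 376 CPM in WT, but 187 of those 196 UMIs were in 1 cell. In Sod1KO it was at 27.9 CPM, from 202 UMIs. Cluster 31 held 37 Lyz2 UMIs in 13 WT cells and 7 in 88 Sod1KO cells, too few to set a level. The 7 tSC-like cells of Sod1KO GFP- held 0 Lyz2 UMIs, and 6 of them were in cluster 7. Most cluster 7 cells came from Sod1KO GFP+, and with 1 library per group a cluster filled mostly by 1 library may reflect that library rather than a cell type.

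Cells of cluster 11 differed widely among themselves. Per 10000 UMIs of the cell, the lower quartile, median and upper quartile of Lyz2 were 8.77, 37.6 and 77.6 in WT, with a maximum of 333. In Sod1KO they were 0, 2.91 and 12.9, with a maximum of 178. The ranges of the libraries thus overlapped, and the highest Sod1KO cells stood above the WT median. A Lyz2 UMI was present in 90.6% of WT cells (86.9 to 93.6) and 70.8% of Sod1KO cells (64.3 to 76.8), at median depths of 15261.5 and 11581.5 UMIs. Thinned to 1000 UMIs these were 75.9% (70.9 to 80.5) and 38.9% (32.3 to 45.7). In Schwann subcluster 2, without the 60 Sod1KO cells of subcluster 1, the shares were 89.3% and 85.2%, and 75.7% and 50.7% after thinning, so the gap in shares moved with which cells the cluster held.

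**Figure D2:**
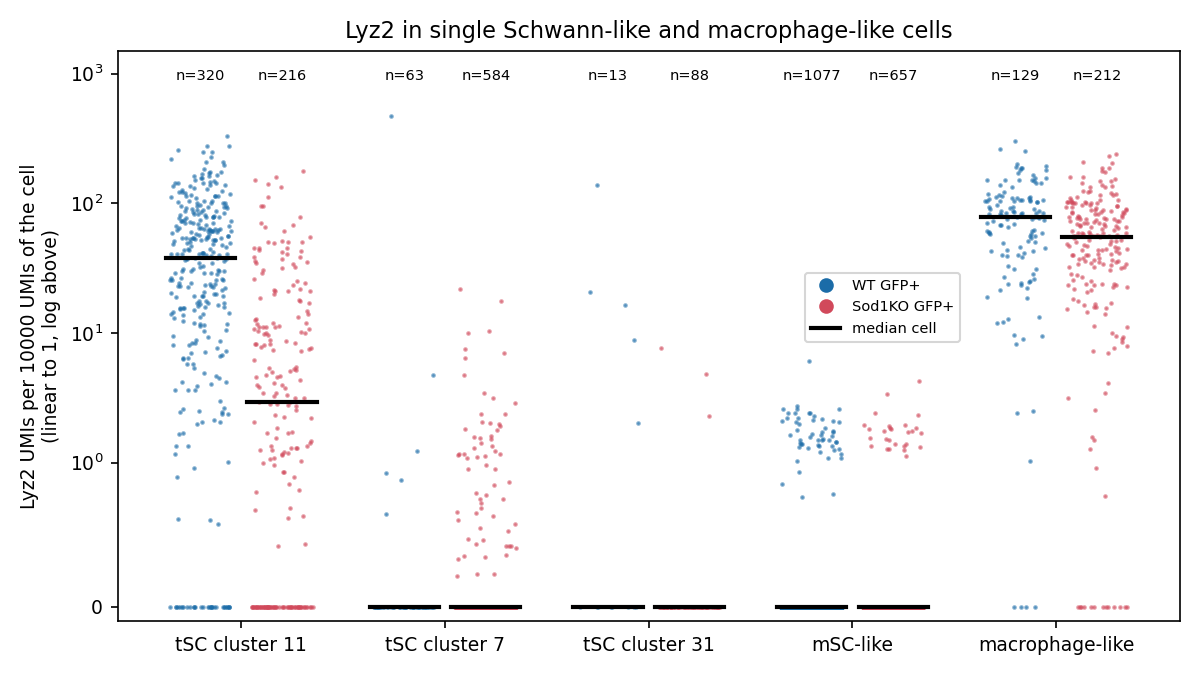
Lyz2 UMIs per 10000 UMIs of each cell (vertical axis, linear to 1 and logarithmic above) in the 3 tSC-like clusters, mSC-like cells and macrophage-like cells of WT GFP+ (blue) and Sod1KO GFP+ (red), with 1 point per cell, the median cell as a black bar and the number of cells above. The median was 37.6 in WT and 2.91 in Sod1KO cluster 11 and 78.1 and 55.1 in macrophage-like cells, and it was 0 in the other groups.

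Because Lyz2 is so closely linked to macrophages, the macrophage genes C1qa, Tyrobp and Fcer1g were counted in the same cells as a check on free RNA, the transcripts of broken cells that enter any droplet. C1qa is a chain of complement C1q, and Tyrobp and Fcer1g are signalling adaptors of myeloid receptors. The WT tSC-like cells held 29803 Lyz2 UMIs beside 1 C1qa, 3 Tyrobp and 11 Fcer1g UMIs. At the ratios found in macrophage-like cells of the same library, that much Lyz2 would have come with 6818 C1qa, 3841 Tyrobp and 4077 Fcer1g UMIs. In Sod1KO tSC-like cells 15, 6 and 13 UMIs were counted where 1741, 975 and 925 would have come. Expressed per 1000 Lyz2 UMIs, C1qa was at 0.0336 in WT and 3.21 in Sod1KO tSC-like cells, against 229 and 372 in the macrophage-like cells of those libraries and 158 and 286 in mSC-like cells. The mSC-like ratios rest on 9 and 8 C1qa UMIs and lay nearer to those of macrophage-like cells than the tSC-like ratios did.

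Leaving out every tSC-like cell with a UMI of any of the 3 genes kept 384 of 396 WT and 857 of 888 Sod1KO cells, with 95.6% and 96.1% of the Lyz2 UMIs, and the levels were 4612 and 432 CPM. Other genes were read in the Lyz2-bearing cells of cluster 11 as a description. Sox10 and Col20a1 are on the Schwann lists used to name clusters, and Csf1r and Adgre1 are on the macrophage list. Their counts thus follow largely from the choice of cluster and are no separate support. Ptprc and Spi1 were on no naming list. Of the 290 WT cells of cluster 11 with a Lyz2 UMI, 96.2% held Sox10, the defining Schwann transcription factor, and 100% held Col20a1. The whole set held 1 UMI of the leukocyte gene Ptprc, 0 of the macrophage gene Adgre1, 7 of Csf1r and 5 of Spi1, the gene of the myeloid factor PU.1. In the 153 such cells of Sod1KO the counts were 0, 0, 2 and 1, and 94.8% held Sox10. Of the 11 macrophage markers, which also served for naming, 10 were below 20 CPM in tSC-like cells of both libraries. The exception was Cx3cr1, the fractalkine receptor, at 15.4 CPM in WT and 25.2 CPM in Sod1KO, and the 11 together summed to 34.9 and 43.2 CPM against 9265 and 7289 in macrophage-like cells.

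**Figure D3:**
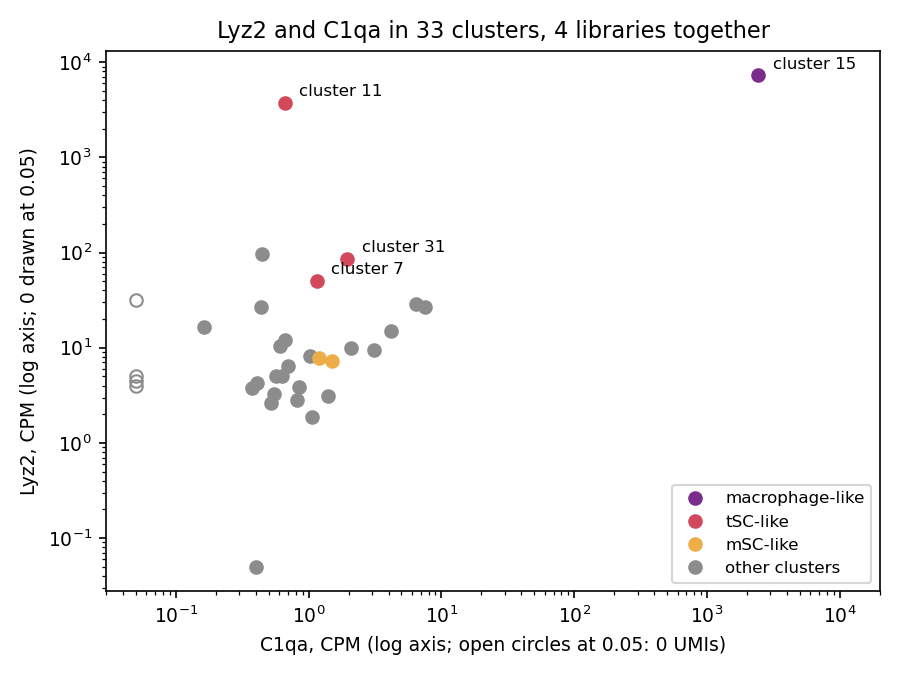
Lyz2 against C1qa in CPM (log axes, values of 0 drawn at 0.05) for the 33 clusters with at least 50 cells, the 4 libraries pooled, with macrophage-like, tSC-like and mSC-like clusters coloured. Cluster 15 was high in both genes, whereas cluster 11 stood at 3757 CPM of Lyz2 with C1qa at 0.662 CPM, and no other cluster passed 100 CPM of Lyz2.

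Placed among all genes, the lysozymes were at the low end of the ratios of Sod1KO over WT. Of 7194 genes with at least 20 CPM in either library of tSC-like cells, 3.85% were lower by a fold of 2 or more in Sod1KO and 3.21% were higher. Both lysozyme genes were among the lower ones, with Lyz1 the lowest and Lyz2 the 2nd lowest of the 7194, but that contrast chose the genes, so the rank is no finding. Within cluster 11, 0.398% of 7027 genes were lower by that fold and 0.484% higher, and Lyz1 was the lowest and Lyz2 the 3rd lowest. Cluster 11 holds nearly all of the UMIs that chose the genes, so this rank is no finding either. The median log2 ratio of all genes was -0.02 over all tSC-like cells and -0.06 within cluster 11.

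**Figure D4:**
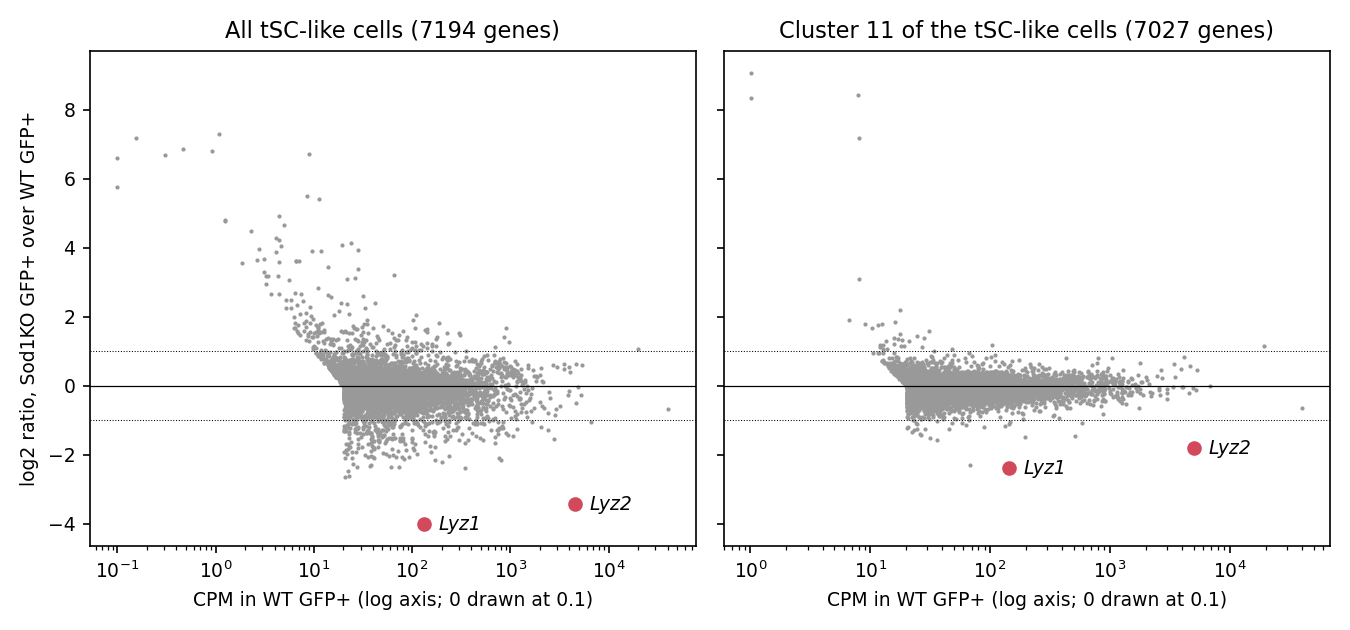
Log2 ratio of Sod1KO GFP+ over WT GFP+ against CPM in WT GFP+ (log axis) for each gene with at least 20 CPM in either library, over all tSC-like cells (7194 genes, left) and within cluster 11 (7027 genes, right), with dotted lines at a fold of 2. Lyz1 and Lyz2 (red) stood at -4.0 and -3.42 on the left and at -2.37 and -1.81 on the right.

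Myelinating Schwann-like cells and the remaining cell types had low lysozyme in every library. Lyz2 was at 7.98 CPM (6.05 to 10.3) in WT and 6.35 CPM (4.22 to 9.18) in Sod1KO mSC-like cells of GFP+, a log2 ratio of -0.33 whose interval of -1.04 to 0.35 included 0. Of 6540 genes that reached 20 CPM in these cells, 0.291% were lower by a fold of 2 or more in Sod1KO and 0.505% higher, and neither lysozyme gene reached that level. Lyz1 had 2 and 0 UMIs, so no ratio was formed. Over all GFP+ cells outside the tSC-like, mSC-like and macrophage-like classes, Lyz2 was at 12.2 CPM in WT and 14.6 CPM in Sod1KO. In the GFP- libraries it was at 3.22 and 4.18 CPM. Lyz1 over the same GFP+ cells was at 0.595 and 0.154 CPM. That set included the unnamed cluster 8, with 309 WT and 324 Sod1KO GFP+ cells. Cluster 8 carried 10 of 10 mSC and 6 of 7 perineurial markers, and its Lyz2 was at 9.51 CPM with the 4 libraries pooled. In a few classes 1 cell held most of the Lyz2 UMIs. In perineurial-like cells of Sod1KO GFP+, 1 of 89 cells held 105 of the 113 Lyz2 UMIs, and C1qa there was at 221 per 1000 Lyz2 UMIs, near the macrophage-like ratio. In smooth muscle-like cells 1 cell held 144 of 187 UMIs in Sod1KO GFP+ and another held 60 of 105 in WT GFP+. Tenocyte-like cells were even, at 12.1 CPM in WT and 12.3 CPM in Sod1KO GFP+, with a Lyz2 UMI in 21.5% and 20.4% of cells at median depths of 29512.5 and 22443 UMIs. C1qa stood there at 48.6 and 59.8 per 1000 Lyz2 UMIs, below the macrophage-like ratios.

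Macrophage-like cells had the highest Lyz2 of all classes, and the difference between genotypes in their GFP+ cells was smaller than in tSC-like cells. Among GFP+ cells Lyz2 was at 9469 CPM (9350 to 9590) for WT and 6363 CPM (6276 to 6451) for Sod1KO, a log2 ratio of Sod1KO over WT of -0.57 (-0.60 to -0.55). Among GFP- cells it was at 5950 CPM (5721 to 6186) and 5227 CPM (5086 to 5371), a log2 ratio of -0.19 (-0.26 to -0.12). The GFP- value equals the median ratio of all genes there, which was -0.19, and with scaling by the median of ratios it was 0.034. The 20 WT cells of that value included 4 cells of a mixed subcluster that held 1 Lyz2 UMI and 0 UMIs of C1qa, Tyrobp and Fcer1g. In the largest macrophage subcluster, with 15 WT and 54 Sod1KO GFP- cells, Lyz2 was at 8320 CPM in WT and 5240 CPM in Sod1KO, a log2 ratio of -0.67 (-0.74 to -0.59), and in its GFP+ cells the ratio was -0.24 (-0.29 to -0.19). Lyz2 was present in 96.9% and 93.9% of the GFP+ cells of WT and Sod1KO. C1qa stood at 2166, 2370, 2813 and 3070 CPM in the 4 libraries.

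Lyz1 in macrophage-like cells was high in the GFP+ libraries and near 0 in the GFP- libraries. It was at 1019 CPM (980 to 1060) in WT GFP+ and 525 CPM (500 to 550) in Sod1KO GFP+, a log2 ratio of -0.96 (-1.05 to -0.87). These levels came from few cells. A Lyz1 UMI was found in 51.9% of the WT and 25.5% of the Sod1KO GFP+ cells, 6 of 129 and 5 of 212 cells held 50% of the UMIs, and without the 10 highest cells of each library the levels were 321 and 135 CPM. In WT GFP- it had 1 UMI and in Sod1KO GFP- 23 UMIs, of which 19 were in 1 cell, and the levels were 2.34 and 23.1 CPM. Of 6429 genes tested in GFP+ macrophage-like cells, 0.747% were lower by a fold of 2 or more and 2.55% higher. Neither lysozyme gene passed that fold, and Lyz1 and Lyz2 ranked 56th and 306th from the lowest. For Lyz1 this call changed with the processing, since its log2 ratio was -1.42 with a per-cell marker rule, -1.22 as a mean of per-cell CPM and -1.25 without the 10 highest cells. In GFP-, where 20 WT cells gave noisy ratios, 11.6% of 7093 genes were lower by that fold and 5.03% higher. Lyz1 was among the higher ones, but it reached 20 CPM only through Sod1KO. At 2.34 CPM in WT it had to be called higher once it was read, so the call is no finding.

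The division of lysozyme UMIs between the genes differed between subclusters of the mixed macrophage-like class. Over all macrophage-like cells of the GFP+ sort, Lyz1 made up 9.72% of Lyz1 plus Lyz2 UMIs for WT (9.36 to 10.1) and 7.62% for Sod1KO (7.27 to 7.97). In the GFP- sort it made up 0.0394% (0.000997 to 0.219) and 0.441% (0.280 to 0.660). Clustered again without the 5 genes, these cells fell into 4 subclusters. Subcluster 0, with 182 cells, had Lyve1 and Cd209 lectins, genes of tissue-resident macrophages, among its leading genes. Folr2, from the resident list, was at 1324 CPM there. Its Lyz1 share was 2.26% in WT GFP+ and 0.342% in Sod1KO GFP+. Subcluster 1, with 142 cells, was led by Gpnmb and Spp1, genes of lipid-handling and phagocytic macrophages, and its shares were 5.67% and 3.87%. In each library 1 cell held a large part of that Lyz1, 205 of 667 UMIs in WT and 209 of 414 in Sod1KO, and without it the shares were 4.23% and 2.04%. Subcluster 2, with 72 cells, had the most Ccr2 and MHC class II transcripts, with Ccl22 and Il12b among its leading genes. Its C1qa was at 260 CPM against 3630 CPM in subcluster 0, and its Csf1r at 173 against 1204 CPM. The name macrophage is therefore unsure for subcluster 2, whose shares were 23.7% (22.7 to 24.7) and 23.4% (22.3 to 24.6). In that subcluster Lyz1 reached 2766 CPM in WT and 1520 CPM in Sod1KO while Lyz2 was at 8912 and 4966 CPM, so both genes were lower in Sod1KO and their split was nearly the same. Without the cell highest in Lyz1 of each library the shares were 21.8% and 21.3%.

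Subcluster 2 was almost absent from the GFP- libraries, with 1 WT and 3 Sod1KO cells against 24 and 44 in GFP+. Inside subcluster 0 Lyz1 also differed between the sorts. There Lyz2 was at 8370 CPM in WT GFP+ and 8320 CPM in WT GFP-, a log2 ratio of GFP+ over GFP- of 0.01 (-0.06 to 0.07), while Lyz1 was at 193 CPM from 162 UMIs in GFP+ and 3.28 CPM from 1 UMI in GFP-. In Sod1KO, Lyz1 in subcluster 0 had 20 UMIs in 67 GFP+ cells and 0 in 54 GFP- cells, where 0 of 3907 lysozyme UMIs has an exact upper bound of 0.0944%. Lyz2 there was also higher in GFP+ than in GFP- for Sod1KO, by a log2 ratio of 0.44 (0.38 to 0.50). In subcluster 1 of Sod1KO, with 84 GFP+ and 9 GFP- cells, Lyz1 was at 312 and 207 CPM, a ratio of 0.59 whose interval of -0.04 to 1.30 included 0, and 19 of the 21 GFP- UMIs were in 1 cell. Subcluster 3, with 41 cells, mixed B-cell and endothelial genes with macrophage genes and was led by Igkc and Cd79a, and its shares were 20.6% in 10 WT GFP+ cells and 0.893% in 17 Sod1KO GFP+ cells. The WT value rested on 1 cell, which held 180 of the 190 Lyz1 UMIs, and was 6.71% without it.

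**Figure D5:**
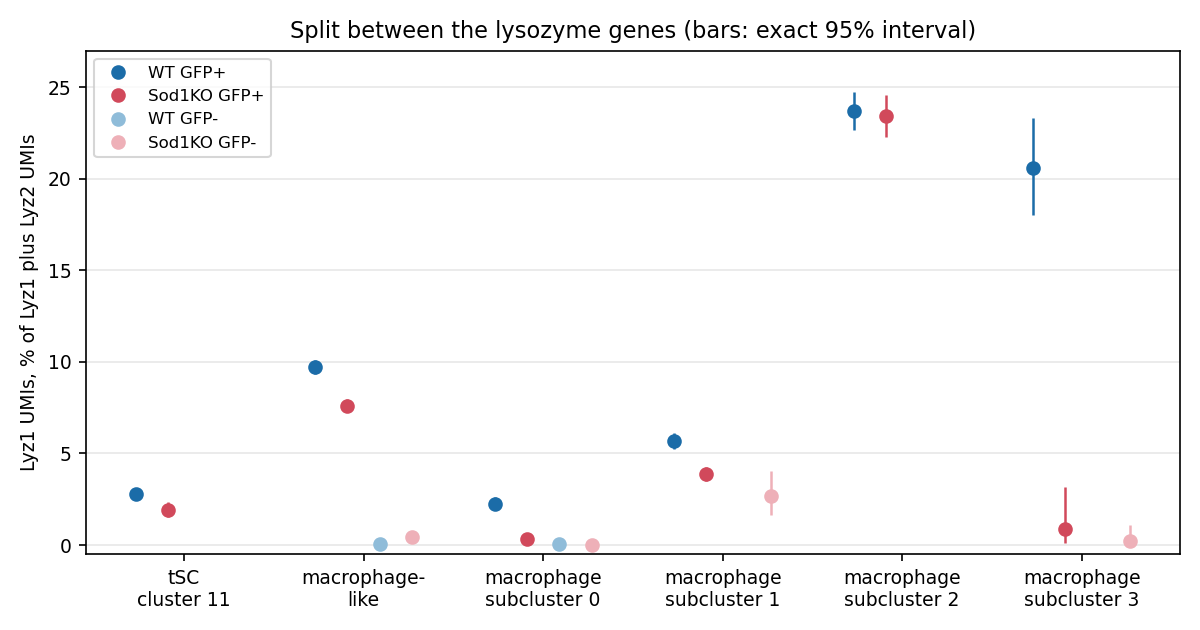
Lyz1 UMIs as a percentage of Lyz1 plus Lyz2 UMIs (vertical axis) in tSC cluster 11, all macrophage-like cells and their 4 subclusters, by library, with exact 95% intervals and groups under 100 lysozyme UMIs left out. Subcluster 2 stood at 23.7% and 23.4% in the GFP+ libraries, and the GFP- libraries lay near 0 in subcluster 0.

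In tSC-like cells Lyz1 was a small part of the lysozyme, at 2.78% (2.60 to 2.97) in WT and 1.87% (1.5 to 2.29) in Sod1KO. These lay below the shares of the whole macrophage-like class of the same libraries. They did not lie below those of its subcluster 0, at 2.26% (1.93 to 2.63) and 0.342% (0.209 to 0.528). Without the 10 cells highest in Lyz1 of each library, 265 of 853 and 42 of 89 Lyz1 UMIs were left. The tSC-like shares without those cells were not computed. The split was uneven between cells. Among the 231 WT tSC-like cells with at least 20 lysozyme UMIs, 120 had 0 Lyz1 UMIs, 14 had Lyz1 above 10%, and the highest cell stood at 65.4%. Among the 55 such Sod1KO cells, 30 had 0, none exceeded 10%, and the highest stood at 9.52%.

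The genes whose levels over the 33 clusters of at least 50 cells were most like that of Lyz2 were found among genes with at least 20 CPM in a cluster, by Pearson correlation of log2(CPM + 1) values. They were Fcgr2b, the inhibitory Fc receptor (r = 0.85), Lyz1 (0.84), Csf2ra, a chain of the GM-CSF receptor (0.80), Pla2g7, the platelet-activating factor acetylhydrolase (0.79), Lair1 (0.78), P2ry12, the purinergic receptor of microglia (0.77), Ptpro (0.75), Dock2 (0.74), Pkib (0.73) and Rp2 (0.73). The points are clusters of the same 4 libraries, and the order rests mainly on clusters 11 and 15. Fcgr2b was at 194 CPM in cluster 11 and 295 CPM in cluster 15, Pla2g7 at 223 and 228 CPM, and P2ry12 at 109 and 62.6 CPM, so these were high in both. Lair1 and Dock2, at 2.76 and 6.73 CPM in cluster 11 against 81.0 and 461 CPM in cluster 15, were macrophage genes in these cells.

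Other genes of the lysosome and of lysozyme control were read from lists. Of 8 further members of the lysozyme family, among them Lyzl4, Lyg1 and Lalba, 0 reached 20 CPM in tSC-like, mSC-like or macrophage-like cells, the classes in which they were read. Of 20 lysosomal genes, 18 could be read in tSC-like cells, with a median log2 ratio of -0.21 against -0.02 for all genes. By a fold of 2, 1 was higher and 0 were lower, where 3.21% of all genes were higher and 3.85% lower. The higher one was Cd63, a lysosome and vesicle membrane protein, at 304 CPM in WT and 841 CPM in Sod1KO, a log2 ratio of 1.47, and within cluster 11 its ratio was 0.36. The others with the highest levels, Laptm4a, Lamp2 and Lamp1, had log2 ratios of -0.22, -0.30 and -0.11. Within cluster 11, 0 of 18 passed that fold in either direction, where 0.484% of all genes were higher and 0.398% lower. In GFP+ macrophage-like cells 0 of 20 did, where 2.55% of all genes were higher and 0.747% lower. The median there was -0.18 against -0.08 for all genes, and Ctsb and Psap were at -0.27 and -0.41. Counts this small are near what those shares would give for any genes.

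Of 7 regulators known from lysozyme transcription in myeloid cells, 4 could be read in tSC-like cells and 0 passed the fold of 2 in either direction. Over all genes 3.85% were lower and 3.21% higher, so 0 of 4 is near what any genes would give. Cebpd was at 525 CPM in WT and 343 CPM in Sod1KO, and Klf4 at 282 and 181 CPM, log2 ratios of -0.62 and -0.63. Runx1 was at 76.1 and 117 CPM and Cebpb at 63.3 and 53.3 CPM, log2 ratios of 0.62 and -0.25. Within cluster 11 the ratios were -0.44 for Cebpd, -0.25 for Klf4, -0.03 (-0.27 to 0.20) for Runx1 and -0.37 for Cebpb. Spi1, which activates Lyz2 in macrophages, was at 0.926 and 0.184 CPM in tSC-like cells against 323 and 314 CPM in GFP+ macrophage-like cells. Of 10 antimicrobial granule genes, Slpi alone reached 20 CPM in tSC-like cells, at 49.7 CPM in WT and 26.0 CPM in Sod1KO. In GFP+ macrophage-like cells 3 of the 10 could be read, S100a9, S100a8 and Slpi. All were higher by a fold of 2 or more in Sod1KO, with 380 S100a9 UMIs against 0 and 218 S100a8 UMIs against 4. However, they reached 20 CPM only through Sod1KO, at 119, 68.0 and 23.4 CPM against 0, 1.59 and 2.78 CPM in WT. Genes read that way had to be called higher, so the count is no finding, and 2.55% of all genes were higher. Pglyrp1, below 20 CPM, was at 12.2 CPM in Sod1KO and 11.9 CPM in WT. S100a8 and S100a9 are neutrophil and monocyte genes, and their part in the lysozyme levels of that class was not tested. Of 4 genes of the resident macrophage state, 1 was lower by the fold of 2 in those cells and 0 were higher, where 0.747% of all genes were lower, and their summed level was 1403 CPM in WT and 905 CPM in Sod1KO. The 4 monocyte state genes summed to 334 and 322 CPM there, mostly through Ccr2 at 324 CPM in WT and 243 CPM in Sod1KO. Plac8, Chil3 and Ly6c2 went the other way, at 5.56, 0.794 and 3.97 CPM in WT and 52.1, 18.4 and 8.73 CPM in Sod1KO. Of these, Plac8 alone could be read, through Sod1KO only, and it passed the fold of 2. In the GFP- libraries the 4 genes summed to 1109 and 102 CPM, and to 71.6 and 102 CPM without 1 WT cell that held all 281 of the WT Ly6c2 UMIs.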

How the data were processed

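Single-cell RNA was measured in 4 libraries, grouped by genotype and GFP sort from their titles. For each gene and barcode the authors deposited UMI counts, made with Cell Ranger 7.1.0 per the file headers, before their own removal of ambient RNA and doublets. The notes name mm10, and the study's methods name other builds and a later Cell Ranger version. Builds were therefore used here for annotation only. Gene coordinates and promoters came from RefSeq on GRCm38.p6, and the transcript sequences came from GENCODE. The kit was a 10x Genomics 3' kit per the labels, and strand handling was not given in the sources used here. Ambient RNA was left in the counts, which bears directly on low values of abundant genes such as Lyz2.

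Barcodes needed over 200 genes and a mitochondrial share under 10%, and doublets were removed by a score from simulated doublets at 0.8% per 1000 barcodes (210, 366, 27 and 287 cells). Software was leidenalg 0.10.2, igraph 0.11.9, scikit-learn 1.9.0, pandas 2.3.3, scipy 1.17.1 and numpy 2.4.6 under Python 3.11.15. After scaling each cell to 10000 UMIs, 2000 variable genes, 30 components, 20 neighbours and Leiden resolution 1 gave the clusters, with Lyz1, Lyz2, C1qa, Tyrobp and Fcer1g left out. A cluster was named "-like" from at least 3 markers, and stayed unnamed where another class had as many as 50% of its list or more of the top 10 genes. Macrophage names were not barred by the monocyte list. These naming limits were chosen once the clusters had been seen. Macrophage-like and Schwann-like cells were clustered again at resolution 0.5.

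CPM came from UMIs summed per class and library, with exact Poisson intervals. Shares had Clopper-Pearson intervals and ratios a conditional binomial interval. Ratios were formed only where a library held over 3 UMIs, the floor, and a gene was tested, meaning read against the fold of 2, at 20 CPM in either library. Single libraries allow no test across animals. The ratio was tested on simulated data. Sequences were aligned with Biopython 1.88 and drawn figures used matplotlib 3.10.9. Named genes were the members, the check genes, up to 4 genes of each list by CPM, and the 10 genes most like Lyz2; others were named after their values were seen. The members and lists were chosen with earlier results of these data known.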

Additional observations from a re-analysis of the deposited data

Results flagged for a closer look

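The log2 ratio of Lyz1 in macrophage-like cells had opposite signs in the sorts, at -0.96 in GFP+ and 3.30 in GFP-, both with intervals that left out 0. The difference between the sorts was not tested, since each group was 1 library. The GFP- value rested on 1 UMI in 20 WT cells and 23 UMIs in 76 Sod1KO cells (interval 0.68 to 8.67), and without the highest cell of each library 0 and 4 UMIs were left. With ambient RNA subtracted the GFP- value was 1.72.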

How the results depend on the processing

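Of 111 alternative values for 15 results, 72 lay within the counting interval of the value reported, 37 lay outside it with the same sign, and 2 changed sign. Lyz1 in mSC-like cells gave no value. For Lyz2 in tSC-like cells the log2 ratio was -3.36 with a stricter cell filter, -3.34 without doublet removal, -3.60 with a per-cell marker rule, -3.56 as a mean of per-cell CPM and -3.35 with median-of-ratios scaling. In settings chosen after seeing the data it was -1.81 within cluster 11, -1.46 within Schwann subcluster 2, -3.49 without the highest cell of each library and -3.85 without the 10 highest, and Lyz1 was -2.37 within cluster 11, -1.93 within Schwann subcluster 2 and -3.43 without the 10 highest. For Lyz2 in GFP+ macrophage-like cells the same settings gave -0.62 (stricter filter), -0.38 (per-cell rule), -0.43 (per-cell mean), -0.51 (median of ratios), -0.54 and -0.47 (highest cell and 10 highest left out) and -0.24 (within macrophage subcluster 0), and for Lyz1 -1.42 (per-cell rule), -1.22 (per-cell mean), -1.25 (10 highest left out) and -2.99 (within macrophage subcluster 0). Lyz2 in GFP- macrophage-like cells was the least stable, at -0.51 (stricter filter), -0.28 (no doublet removal), -0.49 (the 5 genes kept in the clustering), -0.57 (per-cell rule), -0.31 (per-cell mean), -0.12 (highest cell left out), -0.67 (within macrophage subcluster 0, also chosen after seeing the data), and, with the sign turned, 0.034 (median of ratios) and 2.01 (10 highest left out, which removes 10 of the 20 WT cells). The Lyz1 share was 2.58% in WT tSC-like cells without doublet removal and 7.19% and 3.64% in WT and Sod1KO GFP+ macrophage-like cells with the per-cell rule. The thinned share of tSC-like cells with Lyz2 was 68.8% and 14.98% at 2000 UMIs and 76.0% and 25% unthinned. Apart from these constructions, the cause was not tested. No paired analysis was possible because each group was 1 library, and for the same reason no replicate could be left out.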

Other observations

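Within cluster 11, genes were picked from the 10 whose per-cell level correlated most with that of Lyz2 in WT. They were chosen after their values were seen and are given as a description. In the 320 WT and 216 Sod1KO cells, Pearson's r was 0.48 and 0.41 for Apod, an apolipoprotein of glia, 0.40 and 0.48 for Cst3, the protease inhibitor cystatin C, 0.37 and 0.37 for Cspg5, 0.33 and 0.45 for Igfbp4 and 0.32 and 0.48 for Apoe, a lipid carrier. Ranked 4th, 5th and 6th in WT, Atp8a1 had 0.35 and 0.37, Gpc3 0.33 and 0.40, and Col20a1 0.33 and 0.17. The correlation of Lyz2 with log depth in the same cells was 0.18 and 0.10. Cells of 1 library share their depth and free RNA and are not replicates.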
